A study of Mus musculus with 14 samples.

Results

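The comparison was between forelimb buds of wild-type mouse embryos at E10.5 (35 somites, n=3) and at E10.0 (30 somites, n=3), 2 stages of the first outgrowth of the limb. Every gene symbol with at least 1 CPM (counts scaled to the size of the library) in at least 3 of these 6 samples entered the comparison, which left 12527 of the 23284 symbols, on all chromosomes. The 6 samples are part of a series of 14, whose other 8 came from *Smad4* mutant forelimb buds of the same 2 stages (n=4 each). All were labelled as NMRI mice. The wild-type embryos were labelled Smad4+/+ PrxCreT/+ and thus carried the transgene that expresses CRE recombinase from the *Prrx1* limb enhancer, and the mutants Smad4Δ/Δc PrxCreT/+. Each sample pooled both forelimb buds of 1 embryo, with ectoderm, vessels, blood and any attached trunk tissue. By the study's methods the wild-type embryos were littermates of mutants, from males with the *Cre* transgene and 1 null allele and females with 1 floxed *Smad4* allele. The labels give females with 2 floxed alleles, a cross that yields no Smad4+/+ embryos.

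A forelimb bud at these stages is a pocket of mesenchyme from the lateral plate, covered by ectoderm. The apical ectodermal ridge at its tip releases FGFs and a posterior mesenchymal zone releases SHH, and the 2 centers sustain each other while BMPs and their antagonists set the strength of the loop. Muscle precursors enter from the somites, vessels and nerves from the trunk, and the *HoxA* and *HoxD* genes switch on one after the other along each cluster.

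The libraries held 42531348 to 56732292 reads on genes and their scaling factors lay between 0.987 and 1.013. The ribosomal RNA precursor took 0.214% to 0.478% of the reads. The first principal component of the log2 values held 57.7% of the variance and separated the stages, with replicate 2 of E10.0 and replicate 3 of E10.5 at its ends. *Smad4* did not pass the test (165, 147 and 158 CPM in replicates 1, 2 and 3 at E10.0, 163, 160.2 and 162 CPM at E10.5, log2 fold change 0.05), nor did *Xist*, which was high in all 6 (927, 1244 and 833 CPM, then 1008, 976 and 1331 CPM). Of the 12 limb mesenchyme markers 11 passed the filter, and *Pitx1*, the hindlimb gene, did not. *Prrx1*, which marks the limb mesenchyme, had 768, 616 and 753 CPM at E10.0 and 822, 825 and 888 CPM at E10.5 and changed by less than the fold required for a call (log2 fold change 0.25, adjusted p 0.0391). By the rule for calls that follows, 2 of the 11 were higher at E10.5 (*Tbx4* and *Tbx5*) and 4 lower (*Hoxd9*, *Lhx2*, *Msx1* and *Prrx2*), 8 of the 11 had a negative log2 fold change and the median was -0.16. Without replicate 2 of E10.0, 1 was higher.

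A gene was called when edgeR's exact test gave a Benjamini-Hochberg adjusted p of at most 0.1 and the fold change was at least 1.2. Genes given as not called failed the p or the fold, and where levels of the stages follow each other, those of replicates 1, 2 and 3 of E10.0 come first. By this rule 2004 genes (16.0% of those tested) differed between the stages, 994 higher (7.93%) and 1010 lower (8.06%) at E10.5. The count of each list below is to be read against these 2 shares. The shifts were mostly small. The median called gene was 1.40-fold higher or 1.30-fold lower, only 127 genes rose and 39 fell by at least 2-fold, and the median log2 fold change of all genes tested was -0.00. The share called higher was larger at low levels. Of the 943 genes with a mean under 2 CPM 16.9% were called higher and 5.62% lower. Of the 990 genes at 200 CPM and above the shares were 2.53% and 6.36%. A gene under 1 CPM in every embryo of 1 stage passed the filter only through the other stage. Its direction was thus fixed before the test. This held for *Hoxa13*, *Evx1*, *Fgf18*, *Mstn* and *Myog* among others, and on the lower side for *Hoxb1* and *Zscan10*. The 3 embryos of one stage lay entirely above or below those of the other in 905 of the genes called higher and 913 of those called lower, and this also held for 17.6% (higher) and 19.2% (lower) of all genes tested. Without replicate 2 of E10.0 the same test called 1184 genes and without replicate 3 of E10.5 1066, as against 1668 to 2547 without any of the other embryos. In tissue of several cell types, fewer cells of a type and less RNA per cell cannot be told apart, which holds for every value that follows.

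**Figure D1:**
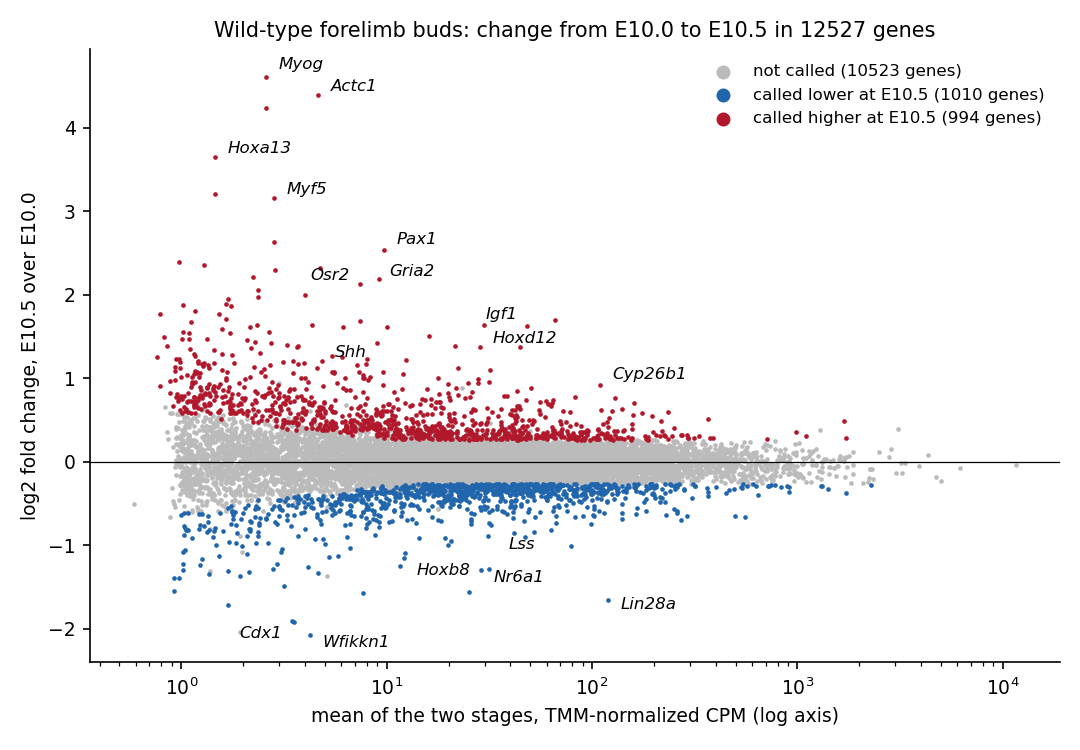
Change of each gene from E10.0 to E10.5 (log2 fold change, vertical axis) against its mean level in both stages (TMM-normalized CPM, log axis), with 1 point for each of the 12527 genes. The 994 genes called higher (red) reach a log2 fold change of 4.61 (*Myog*) at levels of a few CPM, while the 1010 genes called lower (blue) stay above -2.1, with *Lin28a* at -1.66 among the well-expressed ones.

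Both signaling centers changed in their ligands. *Shh*, the signal of the posterior zone (chr5:28783355-28793641 of mm9), had 4.04, 2.17 and 2.62 CPM in the E10.0 embryos and 6.66, 6.54 and 7.18 CPM in the E10.5 embryos. Every older embryo was above every younger one, a 2.3-fold rise (standard error of the log2 fold change 0.27, adjusted p 1.11e-06). Among the ridge FGFs, *Fgf4* had 1.99, 0.67 and 1.03 CPM at E10.0 and 4.01, 2.95 and 3.1 CPM at E10.5 and *Fgf9* had 1.14, 1.24 and 0.903 CPM, then 2.11, 1.97 and 2.53 CPM. They rose 2.7-fold and 2.0-fold without overlap of the embryos, and *Fgf18* rose 1.65-fold but was not called without replicate 3 of E10.5 (log2 fold change 0.72, adjusted p 0.102). *Fgf18* passed the filter through the E10.5 embryos alone, which fixed its direction. *Fgf8*, which marks the whole ridge, was at 14.8, 19.1 and 16.2 CPM at E10.0 and 14.3, 13.7 and 11.1 CPM at E10.5. It fell 1.28-fold but was not called without replicate 2 or 3 of E10.0 or replicate 3 of E10.5 (log2 fold change -0.25, adjusted p up to 0.34). *Fgf10*, the mesenchymal FGF that keeps the ridge active, did not pass the test (52.4, 60.3 and 55.7 CPM, then 49.2, 54.3 and 51.6 CPM, adjusted p 0.37). The responders to FGF in the mesenchyme were lower or did not pass: of 12 such genes 3 fell and none rose, with *Etv4* 1.31-fold, *Etv5* 1.24-fold and the phosphatase gene *Dusp4* 1.23-fold lower, and the median log2 fold change of the 12 was -0.17. Without replicate 2 of E10.5, 5 of them fell.

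The reception side of the SHH pathway moved less. Of 16 tested pathway genes 2 rose (*Shh* and the co-receptor gene *Boc*, 1.29-fold) and 3 fell. The latter were *Disp1*, needed for the release of SHH, the repressor gene *Gli3* and the ciliary kinesin gene *Kif7*, each 1.201- to 1.288-fold. None of these 3 falls held in every fit with 1 embryo left out, and without replicate 3 of E10.5 no gene of the pathway was called lower. The median of the 16 genes was 0.10, and of all genes tested 7.93% were called higher and 8.06% lower.

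The main BMP ligands were not called, unlike several of their modulators. *Bmp2* (3.4, 2.84 and 2.88 CPM, then 3.07, 3.24 and 2.34 CPM), *Bmp4* (54.8, 52 and 49.4 CPM, then 55.9, 55.6 and 51.7 CPM), *Gdf5* and *Gdf6* did not pass the test, and *Bmp7* fell by less than the fold required (55.9, 61.2 and 58.4 CPM, then 54.1, 49.5 and 45.4 CPM). *Bmp5* rose 1.39-fold but was not called without replicate 2 of E10.0 or replicate 3 of E10.5 (log2 fold change 0.42, adjusted p up to 0.132). The largest rises of the list were in secreted and surface modulators: *Smoc2* (2.63-fold), the BMP antagonist gene *Chrdl1* (1.82-fold), the co-receptor gene *Rgmb* (1.53-fold) and *Smoc1* (1.49-fold), with no overlap of the embryos in any of the 4. Altogether 6 of 22 genes rose and 2 fell, the receptor gene *Acvr2b* (1.38-fold) and the pseudoreceptor gene *Bambi* (1.22-fold, not called without replicate 2 of E10.0 or replicate 2 or 3 of E10.5, adjusted p up to 0.422), with a median of 0.18. Of 10 genes that respond to BMP 1 rose and 3 fell (median -0.14), where 7.93% and 8.06% of all genes tested were called, and without replicate 3 of E10.5 2 rose and 2 fell. *Msx1* had 4.63, 7.23 and 5.74 CPM at E10.0 and 4.13, 2.93 and 2.21 CPM at E10.5, a 1.9-fold fall with no overlap, *Atoh8* fell 1.4-fold and *Id3* 1.43-fold but was not called without replicate 2 of E10.0 or replicate 3 of E10.5 (log2 fold change -0.29, adjusted p up to 0.201). *Hey1*, also a Notch target, rose 1.47-fold.

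WNT genes moved in both directions, 9 higher and 6 lower of 31 (median 0.01). *Wnt7a*, the signal of the dorsal ectoderm, had 17.4, 22.7 and 16.3 CPM at E10.0 and 9.29, 10.1 and 10.5 CPM at E10.5 and *Wnt6*, also ectodermal, had 18.9, 24.3 and 17.7 CPM, then 13.7, 11.6 and 13.2 CPM. Both fell without overlap, 1.88-fold and 1.59-fold. The 2 nuclear effectors *Tcf7* and *Lef1* fell together, 1.58-fold and 1.51-fold, as did *Rspo4* (1.45-fold), a potentiator of WNT signals. On the other side, *Wnt9b* rose 2.25-fold, *Wnt16* 2.03-fold, the R-spondin gene *Rspo1* 1.93-fold and its receptor gene *Lgr5* 1.83-fold, and the secreted inhibitor gene *Sfrp1* 1.3-fold. *Wnt5a*, which directs outgrowth, rose 1.22-fold but was not called without replicate 2 or 3 of E10.0 or replicate 3 of E10.5 (log2 fold change 0.25, adjusted p up to 0.0525). *Wnt2*, *Wnt2b*, *Wnt3*, *Wnt4*, *Wnt5b*, *Wnt10a* and *Wnt11* did not pass the test.

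The retinoic acid genes split between breakdown and supply. Retinoic acid comes from the trunk and CYP26 enzymes clear it from the distal bud. *Cyp26b1* had 87.3, 62.6 and 76.7 CPM at E10.0 and 152, 133 and 143 CPM at E10.5 and rose 1.89-fold (standard error of the log2 fold change 0.15, adjusted p 5.51e-15). *Crabp1*, a binding protein of retinoic acid, fell 1.63-fold (309, 372 and 329 CPM, then 239, 201 and 181 CPM) and *Rdh10*, an enzyme of its synthesis, 1.38-fold (25.1, 30.9 and 22.8 CPM, then 18.6, 18.9 and 19.6 CPM). *Aldh1a2*, which completes the synthesis and in the trunk marks body wall mesoderm, rose 2.0-fold (5.29, 6.38 and 3.74 CPM, then 7.58, 11 and 12.2 CPM). In all, 5 of 13 genes rose and 3 fell. Without replicate 1 or 2 of E10.0 or replicate 2 of E10.5 only 3 of the 13 were called higher.

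**Figure D2:**
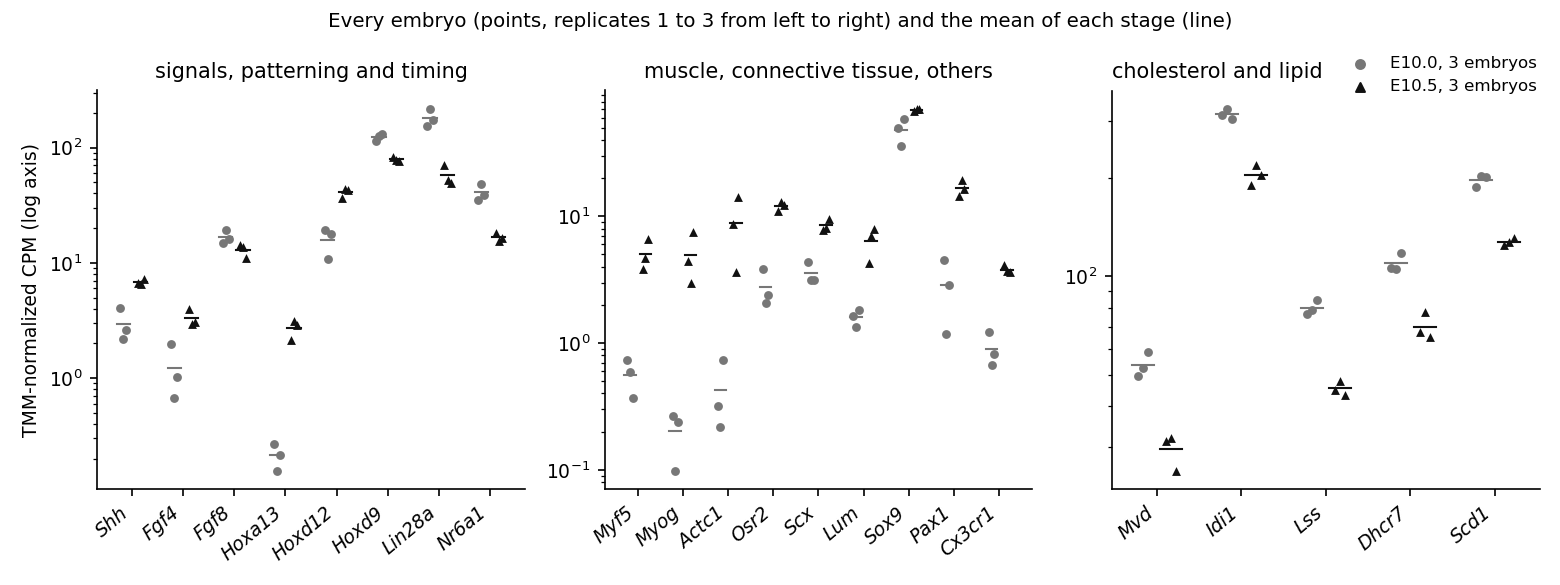
TMM-normalized CPM (log axis) of 22 genes in each of the 3 embryos of E10.0 (grey circles) and E10.5 (black triangles), with a line at the mean of each stage. The ranges of the stages do not overlap in any of the 22, as in *Actc1* with 0.217 to 0.731 CPM at E10.0 and 3.64 to 14.1 CPM at E10.5.

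The Hox clusters changed by position. *Hoxa13*, the last gene of *HoxA* and a marker of the future hand (chr6:52207693-52210874 of mm9), was at 0.267, 0.158 and 0.215 CPM in the E10.0 embryos and at 2.14, 3.14 and 2.87 CPM in the E10.5 embryos. It thus went from 8 to 15 reads per library to 91 to 163, a 12.5-fold rise (log2 fold change 3.65, standard error 0.25, adjusted p 1.06e-29), the smallest p of all genes tested. *Evx1*, which lies next to it, rose 3.27-fold (0.837, 0.571 and 0.903 CPM, then 1.83, 3.09 and 2.63 CPM). *Hoxa13* and *Evx1* passed the filter through the E10.5 embryos alone, which fixed their direction. The noncoding RNA gene 5730457N03Rik (chr6:52258383-52264826 of mm9) rose 9.22-fold. *Hoxa10*, *Hoxa11* and the antisense RNA gene *Hoxa11as* were not called, with log2 fold changes between 0.16 and 0.23. Since the counting ignored strand, reads of *Hoxa11* and *Hoxa11as* where they overlap cannot be told apart. Toward the other end of the cluster *Hoxa9* (1.24-fold), *Hoxa7* (1.46-fold) and *Hoxa4* (1.32-fold) fell. Of these 3 the fall of *Hoxa7* alone held with each embryo left out. The cluster had 4 genes called lower, and 2 without replicate 2 or 3 of E10.0 or replicate 3 of E10.5.

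*HoxD* showed the same split. *Hoxd12* had 19.2, 10.8 and 17.9 CPM at E10.0 and 36.4, 44.1 and 43.3 CPM at E10.5, *Hoxd13* 43.7, 42.9 and 43 CPM, then 58.7, 73.9 and 66.9 CPM and *Hoxd11* 17.4, 14.7 and 17.2 CPM, then 22.4, 24.8 and 24 CPM. All 3 rose without overlap of the embryos, 2.59-, 1.54- and 1.45-fold. *Hoxd10* did not pass the test (97.1, 96.3 and 112 CPM, then 85.6, 92.3 and 92.4 CPM), and *Hoxd9* and *Hoxd8* fell 1.56-fold and 1.39-fold without overlap. *Hoxd3* and *Hoxd4* were called lower too, but replicate 3 of E10.0 stood above the other embryos in both (16.5, 23.5 and 40.1 CPM of *Hoxd4* at E10.0, 17.2, 21.3 and 17 CPM at E10.5), and without it or without replicate 2 of E10.0 or replicate 1 or 3 of E10.5 only 2 genes of the cluster were called lower.

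*HoxB* fell as a whole: all 9 tested genes were lower (median -0.70), with summed levels of 111 to 152 CPM per embryo at E10.0 and 75.9 to 82.8 CPM at E10.5. *Hoxb8* had 13.5, 21.2 and 15.6 CPM and then 7.72, 7.23 and 7.58 CPM, a 2.23-fold fall. *Hoxb1*, the first gene of the cluster, fell 3.28-fold, *Hoxb9* 2.13-fold, *Hoxb6* 2.04-fold and *Hoxb2* 1.62-fold. *Hoxb1* passed the filter through the E10.0 embryos alone, which fixed its direction. At least 8 of the 9 were called in every fit with 1 embryo left out. In *HoxC*, *Hoxc8* and *Hoxc6* fell 1.45-fold and 1.27-fold and *Hoxc13* rose 1.57-fold, but none of these 3 calls held without replicate 2 of E10.0.

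**Figure D3:**
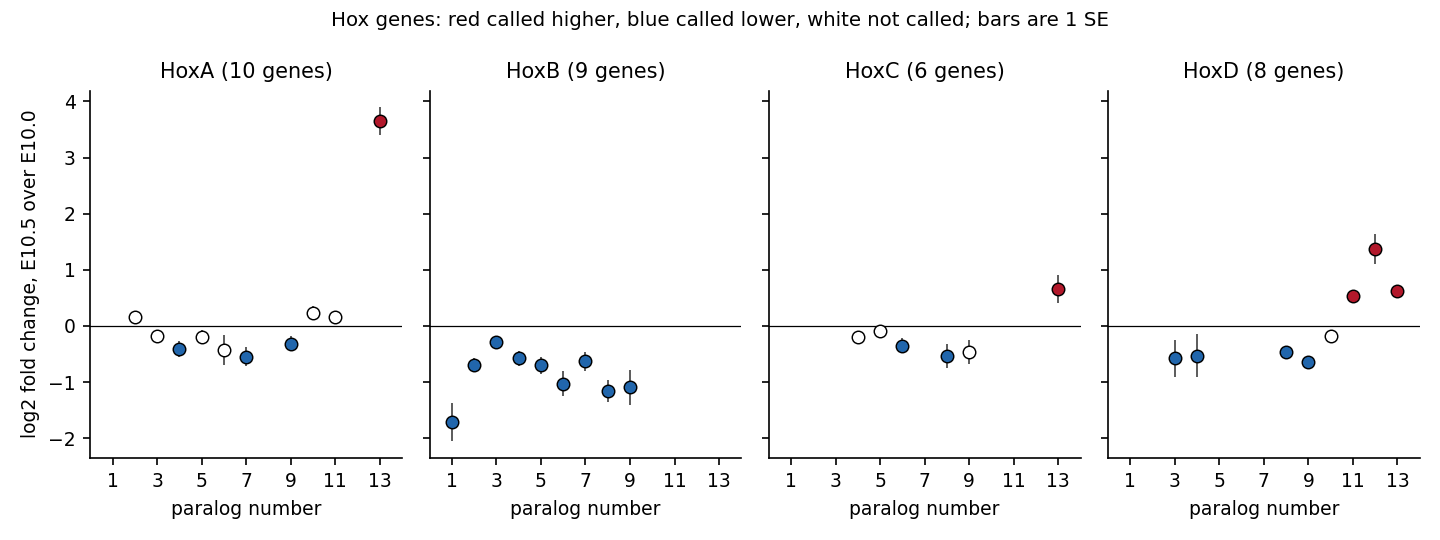
Log2 fold change from E10.0 to E10.5 (vertical axis, bars of 1 standard error) of tested genes of the 4 Hox clusters by paralog number (horizontal axis). In *HoxA*, *HoxC* and *HoxD* the genes called higher (red) carry the numbers 11 to 13 and those called lower (blue) the numbers 3 to 9, and all 9 *HoxB* genes lie below 0.

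Regulators of the limb axes moved in both directions. Of 25 distal, posterior and outgrowth regulators 9 rose and 7 fell (median 0.15). *Osr2*, a zinc finger gene, had 3.83, 2.09 and 2.39 CPM at E10.0 and 11, 13.1 and 12.4 CPM at E10.5, a 4.37-fold rise with standard error 0.27 on the log2 scale. *Sall1* rose 1.68-fold (46.5, 45.6 and 51.8 CPM, then 79.2, 83.9 and 78.1 CPM) and its paralog *Sall4* fell 1.48-fold (54.2, 60.7 and 62 CPM, then 47.8, 37.4 and 34.7 CPM). Among T-box genes, *Tbx15*, *Tbx18* and *Tbx2* rose 1.47-, 1.52- and 1.37-fold. *Tbx5*, which initiates the forelimb, rose 1.22-fold but was not called without replicate 2 of E10.0 (log2 fold change 0.20, adjusted p 0.148), and *Tbx4*, best known from the hindlimb, 2.4-fold (4.18, 1.46 and 3.89 CPM, then 6.45, 8.12 and 8.28 CPM). *Mycn* (1.39-fold), *Lhx2* (1.44-fold), the growth factor-like gene *Dlk1* (1.4-fold) and *Lmx1b*, the determinant of dorsal fate (1.64-fold), fell. Their embryos did not overlap between the stages. *Lhx9* and *Twist1* did not pass the test.

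Of 18 proximal and anterior regulators 4 rose and 5 fell (median -0.11). *Pax1*, a gene of the shoulder girdle and the sclerotome, had 4.52, 1.18 and 2.88 CPM at E10.0, lowest in replicate 2, and 14.4, 19.2 and 16.3 CPM at E10.5, a 5.8-fold rise. *Shox2*, a determinant of the proximal limb (1.34-fold, not called without replicate 2 of E10.0, adjusted p 0.0885), rose less. *Irx5*, an Iroquois homeobox gene, fell 1.3-fold. Without replicate 2 of E10.0, 1 of the 18 genes was called higher and 3 lower, and without replicate 3 of E10.5 3 were called lower.

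The clearest falls belonged to genes of the early embryo. *Lin28a*, which encodes an RNA-binding protein that blocks maturation of let-7 microRNAs (chr4:133559245-133574756 of mm9), was at 154, 218 and 173 CPM in the E10.0 embryos and at 70.5, 52.3 and 49.4 CPM in the E10.5 embryos. Its fall was 3.16-fold (log2 fold change -1.66, standard error 0.22, adjusted p 1.66e-28), the smallest p among all genes that fell. Its paralog *Lin28b* fell 1.51-fold (206, 247 and 208 CPM, then 155, 141 and 144 CPM). *Trim71* and *Igf2bp1*, 2 RNA-binding proteins whose mRNAs let-7 is known to target, fell 1.51-fold and 1.26-fold. *Hmga2*, another known target of let-7, went the other way, from 1685, 1456 and 1524 to 1679.5, 1989 and 1999 CPM (1.21-fold higher, not called without replicate 2 of E10.0 or replicate 2 or 3 of E10.5, adjusted p up to 0.139), and the DNA methyltransferase gene *Dnmt3a* rose 1.24-fold but was not called without replicate 2 of E10.0 (log2 fold change 0.24, adjusted p 0.0573). In all 4 of the 13 tested genes of this list fell, in every fit with 1 embryo left out, and 2 rose. *Nr6a1*, an orphan nuclear receptor of the early embryo, fell 2.45-fold (35, 48.7 and 39.1 CPM, then 18.3, 15.6 and 16.3 CPM) and *Cdx1*, a caudal patterning gene, 3.77-fold (4.65, 6.92 and 5.16 CPM, then 1.57, 1.54 and 1.32 CPM). The zinc finger gene *Zscan10* fell 2.61-fold, from 1.12 to 1.46 CPM to 0.446 to 0.540 CPM.

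Growth genes followed in part. *Myc* fell 1.48-fold (33.3, 40.4 and 33.5 CPM, then 24.7, 25 and 23 CPM), and of 25 MYC and ribosome biogenesis genes 9 fell and 1 rose (median -0.19). *Nop2*, *Polr1b* and *Fbl*, which act in rRNA synthesis and processing, fell 1.31-, 1.25- and 1.23-fold, the last not without replicate 3 of E10.5 (adjusted p 0.0557, log2 fold change -0.24), and the MYC antagonist gene *Mxd1* rose 1.33-fold. Of 77 cytosolic ribosomal protein genes 70 had a negative log2 fold change (median -0.15), 16 were called lower and none higher. *Rplp1* had 549, 694 and 579 CPM at E10.0 and 477, 378 and 305 CPM at E10.5. Without replicate 2 of E10.0 7 were called lower and without replicate 3 of E10.5 5. Replicate 2 had the highest summed level at E10.0 and replicate 3 the lowest at E10.5, and many of these genes have processed copies with which reads can be shared.

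Few cell cycle genes were called. Of 27 DNA replication genes 3 fell and none rose, and of 26 G2 and mitosis genes 1 rose and 1 fell, with medians of -0.05 and 0.03. Without replicate 3 of E10.5 no replication gene was called, and 2 or 3 mitosis genes rose and none fell without it, replicate 2 of E10.5 or replicate 3 of E10.0. *Nusap1*, a spindle protein gene, rose 1.43-fold (102, 91 and 106 CPM, then 125, 148 and 155 CPM). *Cdkn1c*, an inhibitor of cyclin-dependent kinases, had 141, 123 and 132 CPM at E10.0 and 169, 184 and 188 CPM at E10.5 and rose 1.36-fold without overlap, and *Cdkn1a* rose 1.35-fold but was not called without replicate 3 of E10.5 (log2 fold change 0.37, adjusted p 0.118). Of the 12 tested D cyclins and inhibitors 4 rose and none fell, but 2 rose without replicate 2 of E10.0 or replicate 3 of E10.5.

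The largest fold changes of all were in skeletal muscle genes. *Myog*, the differentiation factor of the myoblast (chr1:136186581-136189124 of mm9), had 0.267, 0.0985 and 0.237 CPM in the E10.0 embryos and 4.41, 2.97 and 7.52 CPM in the E10.5 embryos. It rose from 5 to 15 reads per library to 154 to 354, or 24.3-fold (log2 fold change 4.61, standard error 0.53, adjusted p 3.47e-28). *Myf5*, the first of the myogenic factors, had 0.73, 0.591 and 0.366 and then 3.87, 4.67 and 6.67 CPM, a rise of 8.9-fold. *Myod1* was under the filter, at 0 to 0.0394 CPM at E10.0 and at 0.598 to 1.25 CPM at E10.5. The upstream factors rose less or not at all: *Eya2* rose 1.55-fold, while *Pax3* (24.7 to 29.5 CPM in all 6 embryos) and *Met*, the receptor that guides migration, did not pass the test. *Lbx1*, a marker of migrating precursors, fell 1.71-fold (3.9, 3.92 and 5.12 CPM, then 3.12, 2.47 and 2.0 CPM). In all 9 of 13 tested precursor and myoblast genes rose and 1 fell (median 0.63). Of the 9, *Myog*, *Myf5*, *Msc* and *Cdh15* passed the filter through the E10.5 embryos alone, which fixed their direction.

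Contractile genes rose with *Myog*, 6 of the 8 that were tested (median 1.60), and 13 others of this list did not reach the filter. Of the 6, *Actc1*, *Myh3*, *Acta2* and *Tnnt1* were under 1 CPM in every E10.0 embryo. They passed the filter through the E10.5 embryos alone, which fixed their direction. *Actc1*, cardiac alpha-actin, had 0.32, 0.217 and 0.731 CPM at E10.0 and 8.75, 3.64 and 14.1 CPM at E10.5, and *Myh3*, embryonic myosin, 0.107, 0.394 and 0.28 CPM, then 3.97, 1.85 and 8.92 CPM. They rose 21-fold and 18.8-fold. *Acta2* (4.63-fold), *Tnnt1* (3.42-fold) and *Tpm2* (1.46-fold) rose as well, as did, outside the list, the calcium pump gene *Atp2a1* (5.23-fold), and *Des*, desmin, fell 1.69-fold (7.0, 9.56 and 7.12 CPM, then 3.36, 5.03 and 5.56 CPM). The E10.5 embryos differed among themselves in one order in most of these genes, with replicate 3 highest and replicate 2 lowest in *Myog*, *Actc1*, *Myh3*, *Acta2* and *Tnnt1*. The summed level of the 21 sarcomere genes was 34.7 to 41.4 CPM per embryo at E10.0 and 51.3 to 95.6 CPM at E10.5. Some genes of lists for somite and body wall moved beside them. Of the 7 tested of 15 somite derivative genes 4 rose and none fell. These were *Meox2* (23.1, 17.3 and 20.4 CPM, then 39.1, 43.9 and 47.1 CPM, 2.14-fold), *Foxc1*, *Pax1* and *Tbx18*. *Pax1* and *Tbx18* also stand among the limb regulators above, so that the list does not mark trunk tissue alone. *Wt1*, a gene of body wall mesothelium, rose 2.19-fold (1.57, 1.81 and 0.86 CPM, then 2.18, 3.3 and 3.84 CPM). Of the other markers of mesothelium, *Upk3b* had at most 1.40 CPM, *Tbx20* at most 0.108 CPM and *Tcf21* no read at E10.5. Of the 8 tested of 16 in that list 4 rose and 1 fell, and its summed level was 151 to 163 CPM per embryo at E10.0 and 132 to 139 CPM at E10.5, most of it *Lhx2*, which the limb expresses. The part of adjoining trunk tissue in the muscle values was not tested.

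Promoters of these muscle genes are shown for 2 short motifs, the MEF3 core TCAGGTT of muscle promoters and the E-box CAGCTG that myogenic factors bind. In the 250 bases before the start sites of RefSeq (GRCm38.p6), 15 of the 21 tested muscle genes had a sequence. The MEF3 core was found, on either strand, in 3 of the 15 (*Myog*, *Six4* and *Mef2c*) and in 4.07% of all 27025 genes of the table. The E-box was in 6 of 15 and in 14.7% of all genes. Among the 755 genes called higher with a promoter 3.84% held the MEF3 core and 20.5% the E-box. Among the 9925 tested genes with a promoter it was 3.35% and 14.1%. Of the 6 muscle genes with the E-box *Des* fell, *Tnni1* was not called and the others rose. The 3 windows give the match in capitals, on chr1:134289885-134289961 (plus strand, 84 bases before the start) for *Myog*, on chr19:34255515-34255590 (minus strand) for *Acta2* and on chr4:43523741-43523804 (minus strand) for *Tpm2*. A match is a run of letters and no measurement of binding.
Myog: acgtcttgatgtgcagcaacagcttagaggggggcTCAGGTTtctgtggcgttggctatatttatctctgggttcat
Acta2: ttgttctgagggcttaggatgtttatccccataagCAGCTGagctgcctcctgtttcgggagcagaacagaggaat
Tpm2: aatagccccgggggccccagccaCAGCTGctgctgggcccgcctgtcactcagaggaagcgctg

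Connective tissue genes rose broadly. Of 15 tested tendon and connective tissue genes 10 were higher and 1 lower (median 0.42). *Scx*, the transcription factor of tendon progenitors, had 4.38, 3.15 and 3.14 CPM at E10.0 and 7.74, 8.16 and 9.6 CPM at E10.5, and *Mkx*, a second tendon factor, 5.38, 4.35 and 4.9 CPM, then 9.9, 12.1 and 11 CPM. Their rises were 2.38-fold and 2.26-fold, and *Lum*, the matrix proteoglycan lumican, rose 4.01-fold (1.64, 1.34 and 1.83 CPM, then 4.29, 7.0 and 7.94 CPM). No embryo of one stage overlapped the other in these 3. *Egr1*, an immediate early gene also active in tendon, fell 1.86-fold.

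Cartilage genes rose in part. *Sox9*, the master factor of cartilage, had 49.8, 36.1 and 58.2 CPM at E10.0 and 67.7, 70.8 and 70.2 CPM at E10.5 and rose 1.45-fold, and *Sox5* rose 1.27-fold but was not called without replicate 2 of E10.0 or replicate 3 of E10.5 (log2 fold change 0.22, adjusted p up to 0.239), while *Sox6* fell 1.33-fold but was not called without replicate 2 of E10.5 (log2 fold change -0.27, adjusted p 0.113). *Runx2*, the factor of bone-forming cells, rose 2.11-fold (6.98, 5.65 and 5.85 CPM, then 11.9, 13.5 and 13.7 CPM). Of the matrix genes *Col9a1* (1.8-fold) and *Col9a2* (2.81-fold) rose, and *Acan*, *Matn1* and *Comp* were under the filter at both stages. *Col9a2* passed the filter through the E10.5 embryos alone, which fixed its direction. In all 5 of 15 tested genes rose and 1 fell (median 0.03). Among 31 tested collagen genes 10 rose and 2 fell (median -0.01), with *Col1a2* (224, 137 and 198 CPM, then 295, 254 and 297 CPM) 1.51-fold and *Col5a2* 1.54-fold higher. Of 19 genes of hyaluronan, versican and matrix proteases 4 rose, led by the protease inhibitor gene *Timp3* (1.66-fold, 48.9, 38.1 and 47.8 CPM, then 71.2, 77 and 75.4 CPM), and 2 fell, led by the hyaluronan receptor gene *Cd44* (1.51-fold). Without replicate 2 or 3 of E10.0 or replicate 3 of E10.5 2 of these 19 rose, without the last 1 fell, and the count of collagen genes that fell lay between 0 (without replicate 2 of E10.0) and 4 (without replicate 1 of E10.5).

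Genes of cells that enter the bud changed unequally. Of 7 tested macrophage genes 6 rose and none fell (median 1.47), the other 13 of the list being under the filter. Of the 6, *C1qb* and *Fcer1g* passed it through the E10.5 embryos alone, which fixed their direction. *Cx3cr1*, the fractalkine receptor of macrophages, had 1.23, 0.67 and 0.817 CPM at E10.0 and 4.11, 3.68 and 3.61 CPM at E10.5, a 4.16-fold rise (adjusted p 1.96e-16), *Mrc1* rose 3.91-fold and *Csf1r*, the receptor of their growth factor, 2.94-fold. The summed level of the 20 macrophage genes was 9.30 to 18.1 CPM per embryo at E10.0 and 30.8 to 35.8 CPM at E10.5, and all 6 calls stood with each embryo left out. *Cd68* did not pass the test.

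Erythroid genes were higher in 8 of 14 tested, none lower (median 0.34), led by the embryonic globin gene *Hbb-y* (1636, 1116 and 1453 CPM, then 1864, 1671 and 2359 CPM, 1.4-fold). This count rested on 2 embryos. Replicate 2 had the lowest summed level at E10.0 and replicate 3 the highest at E10.5, and without the first 1 gene was called and without the second none. Globin genes are near-identical copies, and 4 others of them had no counted read in any embryo. Endothelial genes did not follow: of 21 none rose and 1, *Erg*, fell (1.36-fold, median of the list -0.16), without replicate 1 of E10.5 6 fell, and without replicate 1 or 2 of E10.0 or replicate 2 of E10.5 2 fell.

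Ectoderm genes fell, 12 of 25 with 1 higher (median -0.28). *Tfap2c*, a factor of the surface ectoderm, had 34.7, 44.9 and 39.2 CPM at E10.0 and 23, 24.8 and 23.4 CPM at E10.5 and *Sp6*, needed for the ridge, 28.4, 40.7 and 27.6 CPM, then 19.9, 19.1 and 18.9 CPM. Both fell 1.67-fold, and with them the tight junction gene *Cldn7* (1.51-fold), *Grhl2*, a regulator of epithelial junctions (1.38-fold), and *Wnt7a*. The summed level of the 26 genes was 538 to 674 CPM per embryo at E10.0 and 484 to 503 CPM at E10.5, and without replicate 2 of E10.0, the highest, 7 were called lower. *Krt14*, a keratin of stratified epidermis, was the 1 gene called higher, and this call was lost without any embryo but replicate 1 of E10.0 (adjusted p up to 0.315).

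Of the nerve and neural crest genes, 8 of 15 for neural crest and 10 of 20 for neurons passed the filter. *Tfap2b* rose 2.17-fold (16.5, 13.1 and 12.6 CPM, then 26.7, 30.7 and 34.3 CPM) and *Ngfr*, the neurotrophin receptor, fell 1.99-fold (22, 35.5 and 21.7 CPM, then 13.8, 12.6 and 13.3 CPM), while *Sox10* and *Foxd3* were under the filter. In all 2 of 8 neural crest genes rose and 1 fell, and 2 of 10 neuron genes rose and 3 fell. The shares over all genes tested were 7.93% higher and 8.06% lower. Without replicate 1 or 2 of E10.0, 1 neural crest gene rose, without replicate 2 of E10.0 or replicate 3 of E10.5 1 neuron gene rose, and without replicate 2 or 3 of E10.5 1 neuron gene fell. Of 18 genes of neural tube, heart, gut and liver 16 were under the filter, and *Olig2* and *Nkx2-5* had no read in any embryo.

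**Figure D4:**
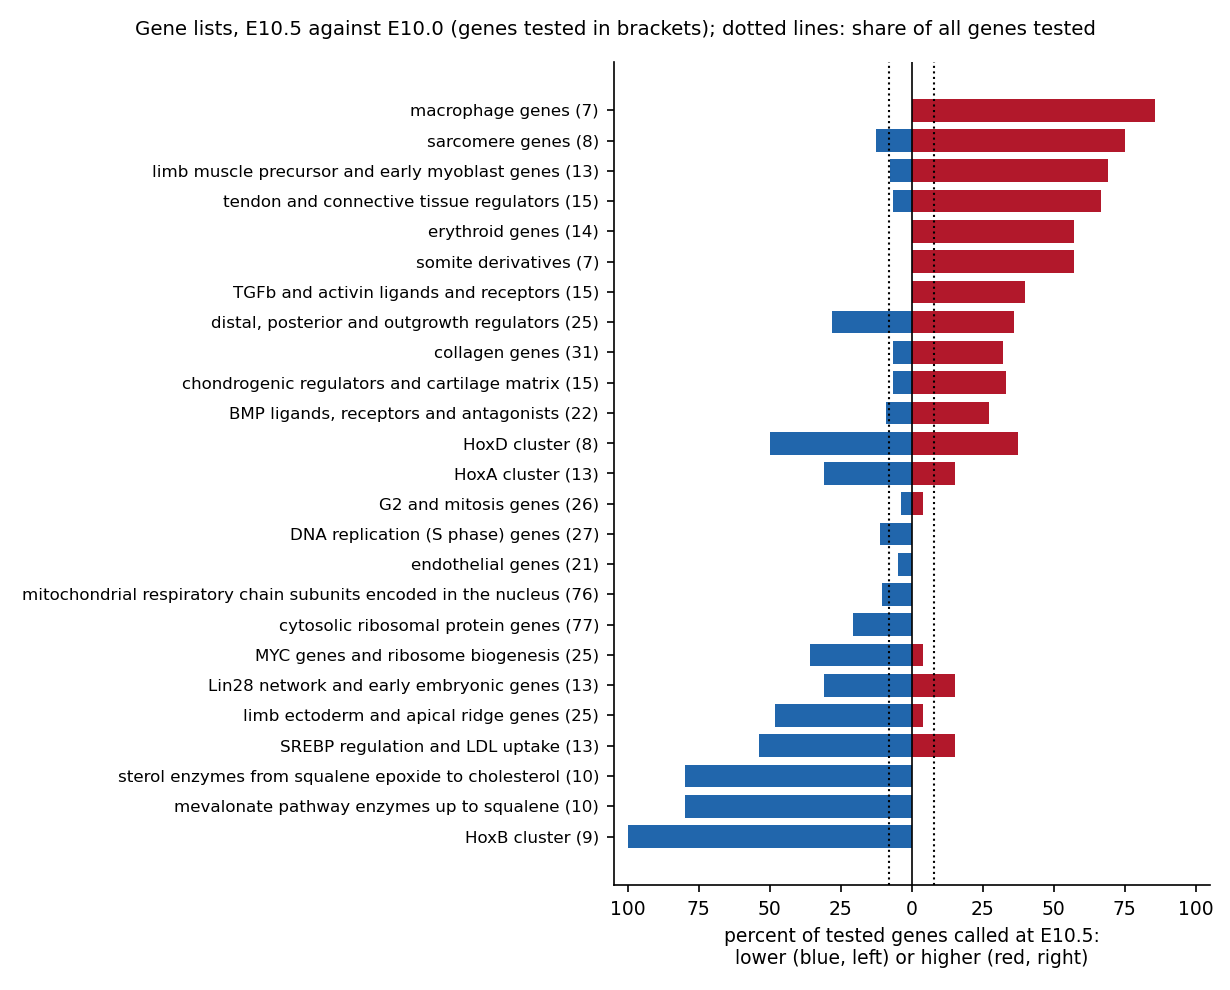
Percent of the tested genes of each list called higher (red, to the right) or lower (blue, to the left) at E10.5, with the number tested in brackets, and dotted lines at the 7.93% (higher) and 8.06% (lower) of all genes tested. Macrophage, sarcomere and myoblast genes reach the highest shares to the right and *HoxB*, mevalonate and sterol genes to the left. Some macrophage, sarcomere and myoblast genes passed the filter through the E10.5 embryos alone. So did single genes of other lists, such as *Mstn* and *Evx1*, and *Hoxb1* passed it through the E10.0 embryos alone.

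The enzymes of cholesterol synthesis fell together. Cells make cholesterol from acetyl-CoA through mevalonate, and the SREBP factors switch these genes on when sterols are low. Of 10 tested enzymes up to squalene 8 fell and none rose (median -0.43), and of 10 from squalene epoxide to cholesterol also 8 and none (median -0.54), against 8.06% of all genes. *Mvd*, mevalonate decarboxylase, had 49.5, 52.5 and 58.7 CPM, then 31.3, 32 and 25.4 CPM (1.81-fold) and *Idi1* 312, 327 and 304 CPM, then 191, 219.6 and 205 CPM (1.53-fold). The largest change among the later steps was in *Lss*, lanosterol synthase (chr10:75994333-76019883 of mm9), with 76.8, 79 and 84.7 CPM at E10.0 and 45, 47.8 and 43.4 CPM at E10.5 (1.77-fold lower, log2 fold change -0.82, standard error 0.06, adjusted p 3.35e-20). *Sc4mol* (1.61-fold), *Dhcr7* (1.57-fold) and *Nsdhl* (1.45-fold) fell too. The stages did not overlap in any of these genes, and at least 7 and 8 enzymes of the 2 groups were called with each embryo left out. *Hmgcs1*, which acts early in the pathway, had at most 0.127 CPM in the deposited counts and did not enter the comparison. Whether its reads were missed in the counting was not tested.

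The regulators of cholesterol went the same way. *Srebf2* fell 1.35-fold and *Insig1*, its feedback inhibitor, 1.53-fold, and in all 7 of 13 regulation and uptake genes fell. The 2 that rose were *Abca1*, which exports cholesterol (1.51-fold), and *Mylip*, a ubiquitin ligase gene (1.22-fold), neither of them without replicate 3 of E10.5. In fatty acid synthesis 4 of 13 genes fell and none rose (median -0.20), among them *Scd1* (189, 203 and 202 CPM, then 125, 128 and 131 CPM, 1.55-fold) and *Fasn* (1.58-fold), and *Aacs*, which feeds ketone bodies into lipid synthesis, fell 1.87-fold.

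The 250 bases before the start sites were searched for the CCAAT box, which the factor NF-Y binds, and for the classical sterol element TCACNCCAC, both strands included. Of 23 cholesterol and SREBP genes with a RefSeq promoter 20 held CCAAT, as against 37.5% of all genes in the table and 41.1% of the 9925 tested genes with a promoter. Among the 787 genes called lower with a promoter the share was 37.5%. The sterol element was in none of the 23 and in 1.22% of all genes, which says only that these letters are not in these windows. The 4 windows are from chr8:122443423-122443484 (minus strand, *Mvd*), chr10:76531508-76531582 (plus, *Lss*), chr13:8885557-8885605 (plus, *Idi1*) and chr8:64733594-64733668 (minus, *Sc4mol*) of GRCm38.p6, with CCAAT or its reverse complement in capitals.
Mvd: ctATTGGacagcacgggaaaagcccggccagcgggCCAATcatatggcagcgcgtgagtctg
Lss: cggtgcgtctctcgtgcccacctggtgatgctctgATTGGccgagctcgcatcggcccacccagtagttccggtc
Idi1: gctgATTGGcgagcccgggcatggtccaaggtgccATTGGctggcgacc
Sc4mol: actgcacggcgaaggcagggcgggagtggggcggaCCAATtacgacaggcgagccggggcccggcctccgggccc

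In energy metabolism the calls were fewer. Of 18 glycolysis genes 5 fell and 1 rose (median -0.21). *Ldha* had 1401, 1578 and 1366 CPM at E10.0 and 1325, 1188 and 1048 CPM at E10.5 (1.22-fold lower, not called without replicate 2 of E10.0 or replicate 3 of E10.5, adjusted p up to 0.212), while *Ldhb*, the other subunit of lactate dehydrogenase, rose 1.28-fold (192, 150.4 and 181 CPM, then 223, 225 and 220.5 CPM, not called without replicate 2 of E10.0, adjusted p 0.034). The count of falls ranged from 0 without replicate 3 of E10.5 to 8 without replicate 1 of E10.5. Of 76 respiratory chain subunits 8 fell and none rose (median -0.05), near the share of all genes, with 4 called without replicate 2 of E10.0 and 2 without replicate 3 of E10.5. Of 16 hypoxia response genes 3 rose (*Kdm3a*, *Bnip3* and *Ddit4*, each 1.24- to 1.26-fold) and none fell, against 7.93% and 8.06% of all genes tested. Without replicate 3 of E10.0 or replicate 1 of E10.5 1 rose.

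*Igf1* had 35.3, 17.6 and 17.9 CPM at E10.0, highest in replicate 1, and 61.9, 75.2 and 82.1 CPM at E10.5, a 3.09-fold rise (standard error of the log2 fold change 0.35), and 4 of 13 IGF genes rose with none lower. In the TGFβ and activin list 6 of 15 rose and none fell (median 0.18). The leading member was *Mstn*, myostatin, with 0.997, 0.414 and 0.667 CPM at E10.0 and 2.04, 2.53 and 3.5 CPM at E10.5 (3.85-fold), followed by *Gdf10* (2.43-fold), and without replicate 2 of E10.0 3 were called. *Mstn* passed the filter through the E10.5 embryos alone, which fixed its direction. Of 17 Notch genes 5 rose and 1 fell (median -0.05), among the former the targets *Hey1* and *Heyl* (1.53-fold) and the feedback gene *Nrarp* (1.31-fold), and the ligand gene *Jag2*, a gene of the ridge, fell 1.64-fold (21.1, 26.3 and 20.7 CPM, then 15.4, 13.2 and 13 CPM). Without replicate 3 of E10.0 or replicate 2 of E10.5 3 of the 17 rose, and without replicate 1 of E10.5 3 fell. *Epha4*, a receptor of cell sorting and nerve guidance, rose 1.53-fold (111, 96.9 and 87.3 CPM, then 153, 130.2 and 168 CPM). Of 19 ephrin and Eph genes 2 rose and 1 fell (median -0.01), near the 7.93% and 8.06% of all genes tested. There were 4 higher without replicate 1 of E10.0 and 1 higher without replicate 2 of E10.0. None was lower without either or without replicate 2 of E10.5, and 2 were lower without replicate 1 of E10.5.

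Of 19 p53 and BCL2 family genes 3 rose and 4 fell, against 7.93% and 8.06% of all genes tested. *Pmaip1*, which encodes the cell death protein NOXA, had 17.8, 8.35 and 17.2 CPM at E10.0 and 35.7, 48.1 and 50.9 CPM at E10.5 and rose 3.11-fold, and *Trp53inp1* rose 1.53-fold. Without replicate 3 of E10.0 2 fell and without replicate 2 of E10.5 1. None of the 4 that fell, *Bax*, *Sesn2*, *Phlda3* and *Bbc3*, was called without replicate 2 of E10.0 or without replicate 3 of E10.5. Of 13 immediate early and heat shock genes 3 rose (*Btg2*, *Ier5* and *Jun*, each 1.28- to 1.38-fold) and 5 fell, of which 3 were called without replicate 2 or 3 of E10.0 or replicate 3 of E10.5. Of 22 imprinted growth genes *Cdkn1c* rose and *Dlk1* fell, and no other was called, under the shares of all genes tested. There was 1 further call in either direction without replicate 1 of E10.0, 1 higher without replicate 2 of E10.5 and 1 lower without replicate 3 of either stage.

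Among the genes with the smallest p or largest fold outside of these groups, *Gria2*, a glutamate receptor subunit, had 4.04, 2.23 and 3.59 CPM at E10.0 and 12.1, 18.2 and 14.8 CPM at E10.5 and rose 4.57-fold. *Dmrt2*, a dermomyotome factor, rose 6.19-fold (1.25, 0.394 and 0.71 CPM, then 4.53, 4.18 and 5.99 CPM) and *Agtr2*, a receptor of angiotensin II, 5.01-fold (2.37, 0.729 and 1.61 CPM, then 6.45, 8.99 and 8.26 CPM). *Gabrp* and *Fggy* rose 5.12-fold and 4.93-fold. On the lower side *Wfikkn1*, which encodes a secreted binder of myostatin, had 5.82, 8.16 and 6.52 CPM at E10.0 and 2.04, 1.64 and 1.21 CPM at E10.5 and fell 4.2-fold. *Crym*, a binder of thyroid hormone, fell 2.96-fold (9.85, 14 and 10.7 CPM, then 4.15, 3.74 and 3.76 CPM), *Scn4b*, a sodium channel subunit, 2.38-fold (13.7, 19.3 and 16.2 CPM, then 7.49, 6.54 and 6.69 CPM) and 5830417I10Rik 1.86-fold. *Arhgdig*, *Ndufa4l2* and *Sct*, the secretin gene, fell 2.62-, 2.91- and 2.54-fold from at most 3.01 CPM. The calls of 2 further genes that fell depended on single embryos. A730098P11Rik had 12.8, 1.89 and 1.66 CPM at E10.0 and 1.53, 1.2 and 1.63 CPM at E10.5, with replicate 1 of E10.0 alone high, and was not called without it (adjusted p 0.485). Gm10653 had 35.3, 39.8 and 37.2 CPM and 32, 3.03 and 3.16 CPM, with replicate 1 of E10.5 at the level of the younger embryos, and was not called without replicate 2 or 3 of either stage (adjusted p up to 0.297).

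The *Smad4* mutants gave a separate set of embryos for the same interval. By the study's methods these may share litters with the wild-type embryos. Of all 12411 genes tested in both genotypes 49.6% were higher at E10.5 in the mutants. Of the 979 genes called higher in wild type and tested in mutants 94.1% were higher and 60.3% were called higher there (n=4 per stage), where 9.71% of the genes tested were called higher. Of the 995 called lower 94.7% were lower and 42.0% called lower, where 7.42% of the genes tested were called lower. Called the other way were 12 and 2 genes. Mutant replicates 4 and 5 of both stages stood apart, with 1.72% to 8.05% of reads on the ribosomal RNA precursor against 0.151% to 0.478% in the other 10 libraries of the series. Without these 4 libraries the shares were 92.8% and 57.3% for the higher genes and 92.7% and 39.8% for the lower genes.

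Whether the change with stage differed by genotype was tested in a joint edgeR fit (quasi-likelihood, 14 samples), which called 22 of 12806 genes (0.172%), 14 of them among the genes called in wild type. The changes with stage of *Myog*, *Actc1*, *Aldh1a2*, *Wt1*, *Cyp1b1*, *Calb2* and *Fam163b* were among them. *Myog*, which rose 24.3-fold in wild type, had, scaled over all 14 samples, 2.08 to 5.40 CPM in the 4 mutants of E10.0 and 0 to 1.44 CPM in those of E10.5 (interaction -6.88 on the log2 scale, adjusted p 0.0153). *Aldh1a2* had 15.5 to 33.1 and 3.13 to 5.15 CPM in the mutants (interaction -3.45, adjusted p 0.00346). Of *Cyp1b1*, a cytochrome P450, the wild-type level did not pass the test (25.4, 26.2 and 25.5 CPM, then 28.6, 22.9 and 25.9 CPM), and the mutants had 34.3 to 38.6 CPM at E10.0 and 17.4 to 21.5 CPM at E10.5. Of the cholesterol enzymes *Lss*, *Dhcr7* and *Fdft1* were called, with interactions of 0.49 to 0.59. *Lss* had 75.8 to 83.6 CPM at E10.0 and 42.9 to 46.7 CPM at E10.5 in wild type and 44.2 to 50.2 and 35.3 to 44.5 CPM in mutants, so that the mutants of E10.0 lay near the level of the wild type of E10.5. Mesothelial genes moved with the muscle genes here: *Wt1*, *Upk3b* and *Gata5* were called as well with interactions of the same sign, and their part in these values was not tested. *Wt1* had 4.87 to 9.71 CPM in the mutants of E10.0 and 0.439 to 1.72 CPM in those of E10.5. Without mutant replicates 4 and 5 the test called 6 genes, with *Myog*, *Aldh1a2*, *Wt1* and *Hoxa11as* among them at adjusted p of 0.0154, 0.0154, 0.0752 and 0.0421. With 1 library left out it called 7 to 34 genes. The count moved by over 1.5 times without wild-type replicates 1 (9), 2 (14) or 3 (9) of E10.0 and 1 (13) or 3 (10) of E10.5, and without mutant replicates 4 (10) or 5 (34) of E10.0 and 2 (11), 4 (9) or 5 (7) of E10.5.

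**Figure D5:**
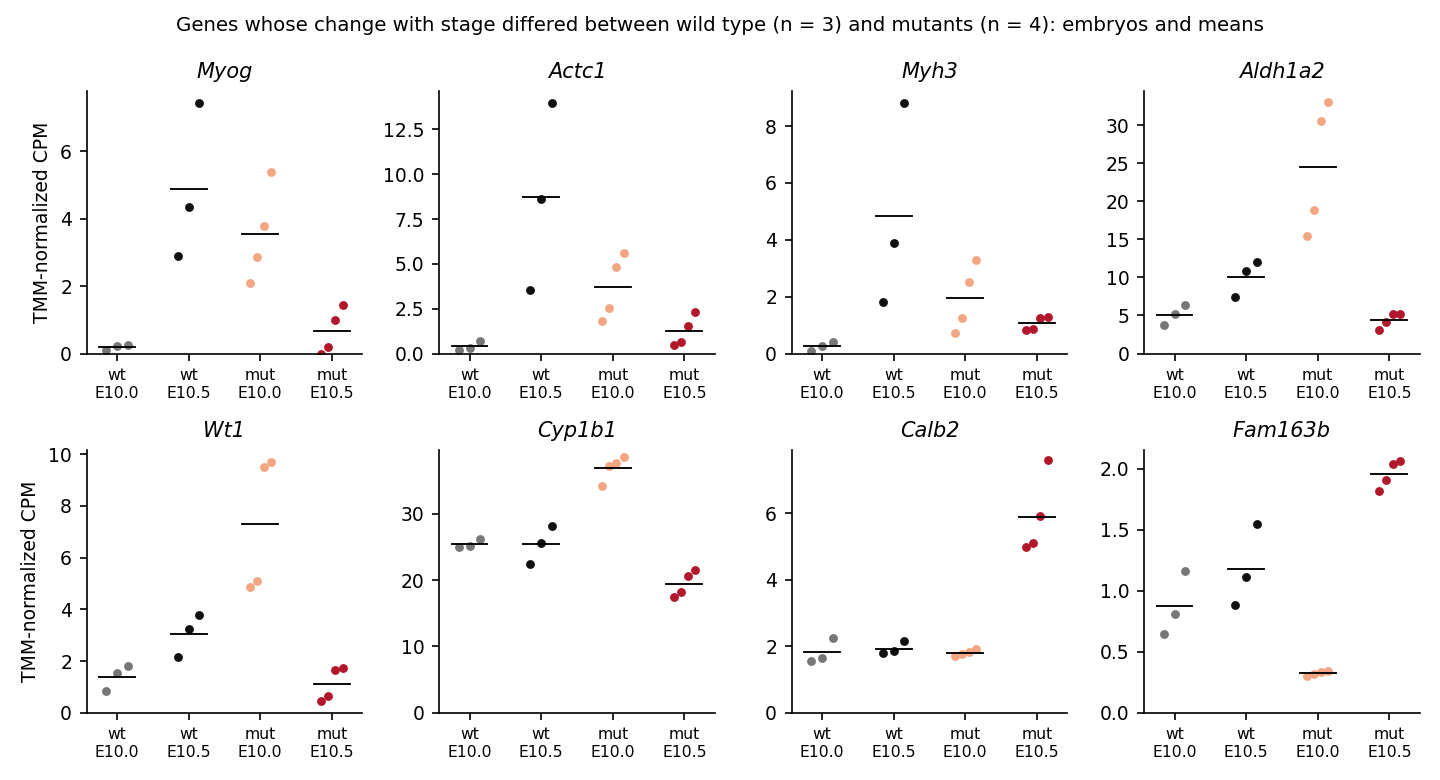
TMM-normalized CPM (vertical axes from 0) of 8 genes with an interaction of stage and genotype in wild-type (n=3) and mutant (n=4) forelimb buds of both stages (E10.0, E10.5), with points for embryos in order of level and a line at each mean. *Myog*, *Actc1*, *Myh3*, *Aldh1a2* and *Wt1* are higher at E10.5 in wild type and lower in mutants, and *Calb2* and *Fam163b* are higher at E10.5 in the mutants.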

How the data were processed

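RNA was measured in forelimb buds by unstranded polyA RNA sequencing (HiSeq 2500, single reads of 50 cycles). The authors deposited 1 table of read counts per gene symbol for each sample. The submitters' processing notes name TopHat2 2.0.13, HTSeq and mm9. The HTSeq summary lines stayed out of all tests (reads on no gene, 6.18% to 8.12%; ambiguous reads, 1.66% to 1.75%). Wild-type stages were compared in edgeR 4.0.16 (R 4.3.3) with TMM scaling, tagwise dispersion (prior df 10), the two-sided exact test and Benjamini-Hochberg adjustment, after a minimum of 1 CPM in 3 samples. Calls needed an adjusted p of at most 0.1 and a fold of at least 1.2. Standard errors come from log2 CPM (prior count 2). The interaction used the quasi-likelihood test over 14 samples. The scripts were tested on simulated data. Depth limits low genes most. P-values rest on the spread between embryos, 3 a stage, with the dispersion of each gene drawn toward that of all genes (prior df 10). In the quasi-likelihood test the adjusted p of *Myog* was 0.00176 and that of *Lss* 0.0015. The exact test gave them 3.47e-28 and 3.35e-20.

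The comparison and the gene lists were chosen with earlier results of these data known. Named genes were the 12 with the smallest p and the 12 with the largest fold in each direction (called, no overlap, at least 1 CPM in the higher stage), up to 5 called members of each list in each direction by p, all tested *HoxA*, *HoxD*, ligand and limb mesenchyme genes, *Smad4* and *Xist*, and the 6 smallest interaction p. Genes outside this rule, such as *Eya2*, *Pax3*, *Met*, *Myod1*, *Upk3b* and the other interaction genes, were named after their values were seen. Some genes that the rule names are not reported here. Mm9 coordinates follow the gene annotation matched by symbol (21709 of 23284 symbols at a single locus), and promoters are RefSeq windows of GRCm38.p6. Replicate numbers did not pair the stages. Alternatives were DESeq2 1.42.0, the quasi-likelihood test, other scaling, filters, thresholds and sample sets, a replicate block and leaving out each embryo.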

Additional observations from a re-analysis of the deposited data

Results flagged for a closer look

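In 22 genes the change from E10.0 to E10.5 differed between the genotypes by the interaction test of edgeR (mutant change minus wild-type change, on the log2 scale). Muscle genes had negative values, with *Myog* at -6.88, *Actc1* at -5.90, *Myh3* at -5.08, *Ttn* at -4.11, *Acta2* at -2.78 and *Tnnt1* at -1.82. So had the mesothelial and body wall genes *Upk3b* (-5.04), *Wt1* (-3.75), *Aldh1a2* (-3.45) and *Gata5* (-2.37). *Ccdc141* (-1.15), *Gm98* (-1.04), *Cyp1b1* (-0.92), *Syt7* (-0.88) and *Srbd1* (-0.46) were negative as well. Positive values were found in *Fam163b* (2.16), *Calb2* (1.62), *Bmf* (0.66), *Hoxa11as* (0.62) and the cholesterol enzymes *Lss* (0.59), *Dhcr7* (0.54) and *Fdft1* (0.49). Without mutant replicates 4 and 5 the values of these 22 genes kept their sign, and the adjusted p of 18 of them was above 0.1.

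In the mutants of E10.5, *Bmf* had 55.2 CPM in 1 embryo and 59.8 to 60.6 CPM in the other 3, a gap of 0.842 of the range of the group. Chance gives such a gap in about 1 in 20 groups.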

How the results depend on the processing

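The count of 2004 genes stayed within 1.5 times under the quasi-likelihood test (1858), DESeq2 (1972), RLE size factors (2007), no filter (2241), a minimum of 5 CPM (1572), no chromosomes X, Y and M (1932) and no fold minimum (2757). It was 1310 (694 higher, 616 lower) with all 14 samples in the fit and 164 (126 and 38) at an adjusted p of 0.05 and 2-fold. With the replicate number as a block it was 1269 (655 and 614). Same-numbered embryos did not deviate together (correlations -0.0445, -0.0496 and -0.246), so the numbers are no pairing. Leaving out 1 embryo gave 997 to 2500 genes (525 to 1081 higher, 472 to 1419 lower), lowest without replicate 3 of E10.5 (997) and replicate 2 of E10.0 (1176). With the same genes tested, a choice made after seeing the data, the range was 1066 to 2547 (548 to 1118 higher, 488 to 1429 lower), with 1184 (548 and 636) without replicate 2 of E10.0 and 1066 (578 and 488) without replicate 3 of E10.5. The interaction count of 22 was 78 by DESeq2, 38 without the filter, 18 with the replicate block, 21 with RLE size factors, 7 to 34 with 1 library left out and, added after seeing the data, 6 without mutant replicates 4 and 5. The cause was not tested. Of the 259 named genes that were called, 167 were called with each embryo left out and none reversed under any of these alternatives. Depth limits genes of a few CPM.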
